A study of Mus musculus with 18 samples.

Results

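The liver and the kidney of sham mice were compared gene by gene with 3 liver arrays and 3 kidney arrays. Every gene was entered through probe sets named for that gene alone, and 1 probe set stood for each gene. Of 18193 genes on the array, 11950 lay above the array median in at least 3 of the 6 arrays and were tested. Sham mice were male C57BL6 animals of 20 g that received saline into the peritoneum and were killed at 24 h. The other 12 of the 18 arrays came from liver and kidney of mice of the same kind given D-galactosamine (GalN, a sugar that injures hepatocytes) at 4.5 g/kg, taken at 24 h or 48 h, with 3 arrays for each organ and time. Organs were flushed in place with saline buffer and RNAlater, and RNA came from a 30 mg piece of the minced whole organ. The liver and kidney samples were thus mixtures of every cell type of the organ. The labels letter the arrays of each group A, B and C, and whether one letter marks one mouse in both organs is not stated. They do not state either that each array is a single animal, so the p-values measure the spread between these arrays, part of which may be technical.

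Hepatocytes, the main cells of the liver, make most proteins of blood plasma, turn cholesterol into bile acids, turn ammonia into urea and oxidise drugs with cytochrome P450 enzymes. The kidney is built of nephrons, each a filter of podocytes and capillaries followed by a tubule. The proximal tubule takes back sugar, amino acids, phosphate and filtered protein through a brush border of microvilli, the thick ascending limb of the loop of Henle and the distal convoluted tubule reclaim salt, and the collecting duct sets water, salt and acid. Both organs make glucose.

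Values are the authors' log2 expression values from gcRMA, a method that corrects Affymetrix signals for background by probe sequence, so a difference of 1 is a 2-fold difference. A difference is always liver minus kidney, given with its standard error (SE), and every adjusted p-value is from limma with Benjamini-Hochberg adjustment over all 11950 genes (two-sided, called under 0.05). The lowest value of the table was 2.21. An organ was taken as at the floor for a gene when all 3 of its arrays lay less than 1 above that value. A fold against such an organ, or against an array value that the probe set shows to the last digit in another array, is a lower bound and is written "at least". Background readings of this kind vary little, so the small SE and p-values of genes with 1 organ at the floor may rest on too small a spread. The array medians used as the filter were low, at 2.36 to 2.42, and 902 of the tested genes were at the floor in both organs.

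Of the 11950 genes, 6047 differed between the organs. There were 2375 genes higher in liver (19.9% of those tested) and 3672 higher in kidney (30.7%), and 5903 were not called. The difference was at least 8-fold for 576 of the genes called higher in liver (4.82% of those tested) and for 803 of those called higher in kidney (6.72%). The other organ was at the floor for 195 of the 576 and 228 of the 803. In 7335 genes (61.4%) the 3 arrays of one organ all lay beyond the 3 of the other.

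**Figure D1:**
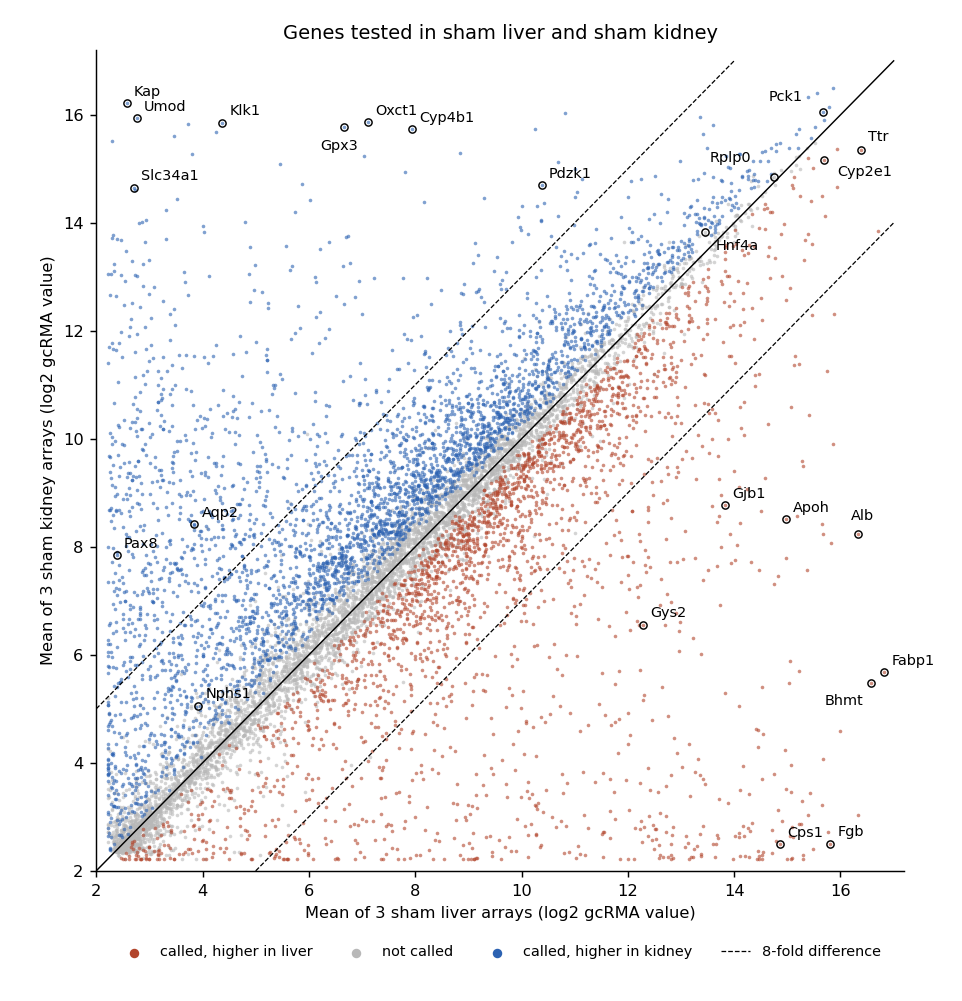
Mean log2 value of each tested gene in the 3 liver sham arrays (horizontal axis) against its mean in the 3 kidney sham arrays (vertical axis), with an 8-fold difference marked by dashed lines and 24 genes labelled. The 576 genes at least 8-fold higher in liver lie below the lower dashed line and the 803 at least 8-fold higher in kidney above the upper one, and many of both lie along the floor of the other organ.

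The balance of small differences depended on how the arrays were put on one scale. The middle tested gene differed by -0.07 between the organs, and the lower and upper quartiles were -0.79 and 0.33. Centring each array on its median moved every difference up by 0.23, including those of genes at the floor in both organs. Quantile normalization moved differences both ways, down in 2293 genes (19.2%) and up in 9657, with a median of 0.22 upwards over genes clear of the floor in all 6 arrays. The calls were then 3826 higher in liver and 3330 higher in kidney after quantile normalization, and 4120 against 3057 after centring. Differences of several units are large beside those shifts, but the differences of mitochondrial, proteasome, clock and ribosomal genes below are not, and their counts are given under both scalings. Across all genes the liver arrays correlated with each other at r of 0.990 to 0.994, the kidney arrays at 0.996 to 0.998, and liver with kidney arrays at 0.887 to 0.894. The arrays of an organ were therefore much more alike than the organs.

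The markers of each organ's main cells lay where the labels put them. All 9 matched hepatocyte markers were higher in liver, and Cps1, Cyp3a11 and Fgb were at the floor in kidney. All 9 proximal tubule markers, all 7 of the loop of Henle and distal tubule and all 9 of the collecting duct were higher in kidney. In liver, the proximal tubule markers Slc34a1, Lrp2, Cubn, Slc22a8, Slc5a12 and Kap were at the floor. In bulk tissue, more cells of a type and more RNA per cell cannot be told apart, which holds for every difference that follows.

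Plasma carrier and transport proteins lay far towards liver. All 17 tested genes were called higher in liver, 15 of them at least 8-fold, with a median difference of 9.87 (9.31 with genes at the floor set to their bounds), against -0.07 over all genes. Ahsg, the plasma glycoprotein fetuin-A, read 15.79, 15.78 and 15.71 in liver arrays A, B and C, against 2.73, 2.70 and 2.73 in the kidney arrays, so that kidney lay at the floor (at least 5992-fold). Hpx, hemopexin, which binds heme in plasma, read 15.44 to 15.51 in liver and 2.41 in each kidney array (at least 4911-fold). Both genes were separated by more than 12 units in every pairing of arrays. Mug1, a protease inhibitor of mouse plasma, and Ambp, the precursor of alpha-1-microglobulin and bikunin, had the same form, at least 4339-fold and at least 3810-fold higher in liver.

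Albumin, the main carrier of plasma, was measured in both organs. Alb read 16.50, 16.22 and 16.28 in liver, against 8.08, 8.44 and 8.18 in kidney (8.10, SE 0.13, adjusted p = 1.24e-06, 275-fold). The kidney arrays lay far above the floor but did not come near liver. The smallest differences of the list were those of Ttr, transthyretin, the carrier of thyroxine and retinol-binding protein, and of Selenop, selenoprotein P, whose call (0.18, adjusted p = 0.0211) was lost after quantile normalization (adjusted p = 0.961). Ttr read 16.40, 16.43 and 16.33 in liver, against 15.30, 15.20 and 15.55 in kidney (1.04, SE 0.10, adjusted p = 0.000711, 2.05-fold), so both organs were high.

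Among apolipoproteins and genes of lipoprotein assembly, 16 of 17 were higher in liver and 14 of them at least 8-fold. Apoa1, the main protein of HDL, named after its values were seen, read 16.31, 16.26 and 16.42 in liver, against 3.67, 3.09 and 2.32 in kidney (13.30, SE 0.35, at least 8887-fold). Apoc4 and Apof, both carried on lipoproteins, read 14.39 to 15.15 in liver and 2.21 in all kidney arrays (at least 3694-fold and at least 2450-fold). Apoh, which binds phospholipid in plasma, was clear of the floor in both organs, with 14.95, 15.03 and 14.93 in liver and 8.52, 8.50 and 8.53 in kidney (87.3-fold, adjusted p = 9.4e-08). Lpl was the exception. This lipase of capillary walls, which clears triglyceride from plasma, read 7.87, 8.31 and 8.35 in liver, against 14.15, 13.99 and 15.04 in kidney (-6.22, SE 0.33, adjusted p = 8.46e-05).

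In coagulation and fibrinolysis 20 of 24 tested genes were higher in liver, 3 were higher in kidney and 1 was not called. Fgb, the beta chain of fibrinogen, read 15.55, 15.85 and 16.00 in liver, against 2.38, 2.57 and 2.57 in kidney (13.30, SE 0.14, adjusted p = 3.1e-07, at least 6166-fold). F2 (prothrombin), Plg (plasminogen) and Serpind1 (heparin cofactor II) read 14.03 to 14.73 in liver and lay at the floor in kidney, at least 2895-fold, 2529-fold and 1889-fold higher. F10, coagulation factor X, read 13.36, 13.43 and 13.55 in liver, against 3.66, 3.44 and 3.71 in kidney (9.84, SE 0.10, 918-fold). The 3 genes higher in kidney are products of vessel walls and other tissues. Plat, tissue plasminogen activator, read 3.41, 3.45 and 3.41 in liver, against 10.06, 10.33 and 10.35 in kidney (at least 113-fold, adjusted p = 1.08e-06). Thbd (thrombomodulin) differed by -3.40 and F3 (tissue factor) by -2.07, both called. Vwf, a product of endothelium and platelets, was the gene not called.

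Complement also lay towards liver. Of 18 genes, 17 were higher in liver, 14 at least 8-fold, and the exception was Cd55, which shields cell membranes from complement. Cd55 read 5.44, 5.11 and 5.0 in liver, against 8.77, 8.44 and 9.06 in kidney (-3.57, SE 0.21, adjusted p = 0.000122). C4bp, a plasma inhibitor of complement, read 14.10, 13.99 and 14.22 in liver and 2.30, 2.30 and 2.21 in kidney (at least 1903-fold). Mbl2, a mannose-binding lectin, and Masp2, the protease it activates, were at least 783-fold and at least 196-fold higher in liver. Cfi, complement factor I, was clear of the floor in every kidney array, with 3.92, 4.40 and 3.50, against 14.06, 14.14 and 14.31 in liver (1202-fold).

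The promoters of genes at least 8-fold apart were searched for letters bound by HNF1 and HNF4, transcription factor families active in hepatocytes and in the proximal tubule. The RefSeq window on GRCm38.p6 ran from 250 bases before to 50 bases after the gene's start, and both strands were read. Some genes had more than 1 start and window, and a match in any of them counted for the gene. Counted over genes with a window, the HNF1 letters GTTAATNAT were found in 17 of 446 genes higher in liver (3.81%) and 9 of 628 higher in kidney (1.43%). They were found in 71 of 9670 tested genes (0.734%) and 254 of all 27025 genes (0.94%). The HNF4 letters CAAAGTCCA were found in 8 of 446 (1.79%) and 7 of 628 (1.11%), against 62 of 9670 (0.641%) and 150 of 27025 (0.555%). These shares are descriptions, with no test, and a match is not a site that was shown to be bound. Most genes of either group held neither string in their windows.

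The following stretches, chosen after the search, show the HNF1 letters in capitals (as their reverse complement where they lie on the other strand) upstream of genes of both organs, each read 5′ to 3′ along the gene. The first 5 belong to liver genes: the bile acid and drug importer Slco1b2, the complement inhibitor C4bp, albumin, the glucokinase regulator Gckr, and Fga, the alpha chain of fibrinogen.
Slco1b2 (chr6:141629442-141629470, plus strand): tgaagagataGTTAATCATcactgaactg
C4bp (chr1:130661664-130661692, minus strand): gctctagtctGTTAATCATtcaccgggac
Alb (chr5:90460828-90460856, plus strand): ggtaagtatgGTTAATGATctacagttat
Gckr (chr5:31297494-31297522, plus strand): gggttcttagGTTAATCATctccatggct
Fga (chr3:83026097-83026125, plus strand): gccaagggtgATGATTAACctcctgccgg
The next 4 belong to kidney genes: the brush border protein Cltrn (collectrin), Pkhd1, which is mutated in recessive polycystic kidney disease, the brush border protocadherin Cdhr2, and the proton pump subunit Atp6v0a4.
Cltrn (chrX:164090123-164090151, plus strand): actgatgggcGTTAATTATtaaacctttt
Pkhd1 (chr1:20618118-20618146, minus strand): agtggctcgcGTTAATTATtaaacttgcc
Cdhr2 (chr13:54701399-54701427, plus strand): tctctgcatgGTTAATGATtgctcagaag
Atp6v0a4 (chr6:38124630-38124658, minus strand): gacttcacaaGTTAATCATtccttaggcc
The letters GTTAATNAT thus lay upstream of genes whose differences were 11.96, 11.84, 8.10, 7.59 and 5.95 in the order of the liver genes and -13.21, -6.47, -5.94 and -5.59 in that of the kidney genes.

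The HNF4 letters, in capitals below, lay upstream of 3 liver genes of the P450 family (Cyp2c70, which makes muricholic acid in mice, the drug oxidase Cyp3a11 and the bile acid enzyme Cyp8b1) and of 2 kidney brush border genes (Slc3a1, a subunit of the cystine carrier, and the trehalose enzyme Treh).
Cyp2c70 (chr19:40187332-40187360, minus strand): aggtcaaactCAAAGTCCAaactctgtgt
Cyp3a11 (chr5:145879945-145879973, minus strand): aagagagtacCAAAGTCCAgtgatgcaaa
Cyp8b1 (chr9:121916354-121916382, minus strand): agcctctgagCAAAGTCCAagggcaggaa
Slc3a1 (chr17:85028298-85028326, plus strand): cttggctggaCAAAGTCCAgccatgatta
Treh (chr9:44673152-44673180, plus strand): cctcatagccTGGACTTTGgctgacctgg
The differences of these genes were 11.36, 11.06 and 10.62 for the P450 genes and -4.28 and -3.77 for Slc3a1 and Treh.

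The 200 bases that end at the start of the albumin gene are shown as the wider setting of its match, which is again in capitals.
Alb upstream (chr5:90460670-90460869, plus strand): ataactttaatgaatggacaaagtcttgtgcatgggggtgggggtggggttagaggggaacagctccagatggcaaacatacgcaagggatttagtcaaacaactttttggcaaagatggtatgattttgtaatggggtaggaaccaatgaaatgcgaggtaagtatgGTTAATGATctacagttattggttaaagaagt

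Acute phase proteins, which hepatocytes secrete in inflammation, were higher in liver for all 17 tested genes, 16 of them at least 8-fold, with a median difference of 9.55 (9.44 with bounds). Crp (C-reactive protein) read 13.61, 13.67 and 13.74 in liver, against 2.56, 2.72 and 2.73 in kidney (at least 1407-fold). Saa1, serum amyloid A, read 12.54, 15.29 and 15.47 in liver, against 2.22 in each kidney array (12.22, SE 0.85, adjusted p = 0.000238, at least 2385-fold). Lcn2, lipocalin-2, which also marks injured tubules, read 11.46, 13.45 and 14.13 in liver, against 4.62, 4.46 and 2.70 in kidney (at least 544-fold, adjusted p = 0.000865). Liver array A was the lowest of the liver arrays for both genes. It was the lowest for all 17 genes of the list, whose mean reading was 11.92 in liver array A, 12.93 in B and 13.33 in C, against 3.76, 3.56 and 3.28 in the kidney arrays. For Saa1 and Lcn2 the arrays of the organs did not overlap.

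Bile acid synthesis and transport lay mostly towards liver. Of 24 genes, 17 were higher in liver (15 at least 8-fold) and 5 higher in kidney (Amacr, Abcc2, Abcc4, Slc51a and Slc51b). Cyp7a1, the rate-limiting enzyme of bile acid synthesis, read 10.77, 10.07 and 9.50 in liver, against 3.99, 3.60 and 2.88 in kidney (at least 98.6-fold). Cyp8b1, which sets the share of cholic acid, read 13.23, 13.24 and 12.94, against 2.50, 2.53 and 2.52 in kidney (at least 973-fold). Among pumps of the hepatocyte's bile side, Abcb11, the bile salt export pump, was at least 478-fold higher in liver and Abcg5, a subunit of the sterol pump, at least 252-fold higher. Abcc2, which exports conjugated anions in both hepatocytes and proximal tubule, was measured in both organs and differed by -0.62 (SE 0.15, adjusted p = 0.023).

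Other transporters of the list fell on both sides. Slc10a1, the sodium-coupled importer, read 14.08, 14.24 and 14.01 in liver and 3.88, 3.88 and 2.76 in kidney (at least 1560-fold). Slc51a and Slc51b, the subunits of the organic solute exporter, differed by -7.19 (SE 0.34) and -4.89 (SE 0.38), higher in kidney. Abcc4, an exporter of organic anions, differed by -6.44. Slc10a2, the sodium-coupled importer of the apical membrane in ileum and proximal tubule, gave near background readings in both organs, 4.39, 4.34 and 4.34 in liver against 4.35, 4.48 and 4.34 in kidney (adjusted p = 0.632), and its difference turned to 0.33 (adjusted p = 0.0118) after quantile normalization.

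Of the urea cycle enzymes, Cps1, Otc and Arg1 were at the floor in kidney, while Asl was measured in both organs. Cps1, which starts the cycle in mitochondria, read 14.90, 14.86 and 14.82 in liver, against 2.47, 2.53 and 2.48 in kidney (12.37, SE 0.05, adjusted p = 3.79e-08, at least 3207-fold). Otc, the second enzyme, and Arg1, which releases urea, were at least 2436-fold and at least 3522-fold higher in liver. Asl, which releases arginine and also serves arginine synthesis in the kidney, differed by 1.34 (SE 0.14, adjusted p = 0.00109). The probe set that stood for Ass1, the enzyme before it, read close to the floor in both organs, with means of 3.11 in liver and 2.93 in kidney, and gave no usable level. Arg2, the mitochondrial arginase, was higher in kidney (-1.30, SE 0.21), at readings of 3.81, 3.54 and 4.26 there, against 2.33, 2.67 and 2.69 in liver. Over the 13 genes of the list, 9 were higher in liver, 2 in kidney and 2 not called. The other gene higher in kidney was Rhcg, an ammonia channel of the collecting duct (at least 44.8-fold).

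Amino acid breakdown lay towards liver for 26 of 30 genes. Tdo2, which opens the ring of tryptophan, read 15.24, 15.31 and 15.34 in liver, against 2.31, 2.31 and 2.25 in kidney (at least 4352-fold). Mat1a, the liver form of methionine adenosyltransferase, was at least 3752-fold higher, and Bhmt, which remethylates homocysteine, read 16.58, 16.61 and 16.55 in liver against 5.69, 6.24 and 4.49 in kidney (11.11, SE 0.46, 2208-fold). The 2 genes higher in kidney were Gatm and Dao. Gatm, the first enzyme of creatine synthesis, read 5.62, 6.27 and 5.71 in liver, against 14.67, 14.76 and 14.70 in kidney (-8.85, SE 0.19, adjusted p = 3.49e-06, 460-fold higher in kidney). Gamt, the second enzyme of creatine synthesis, lay the other way (4.16, SE 0.19). Dao, which oxidises D-amino acids, was at least 349-fold higher in kidney.

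**Figure D2:**
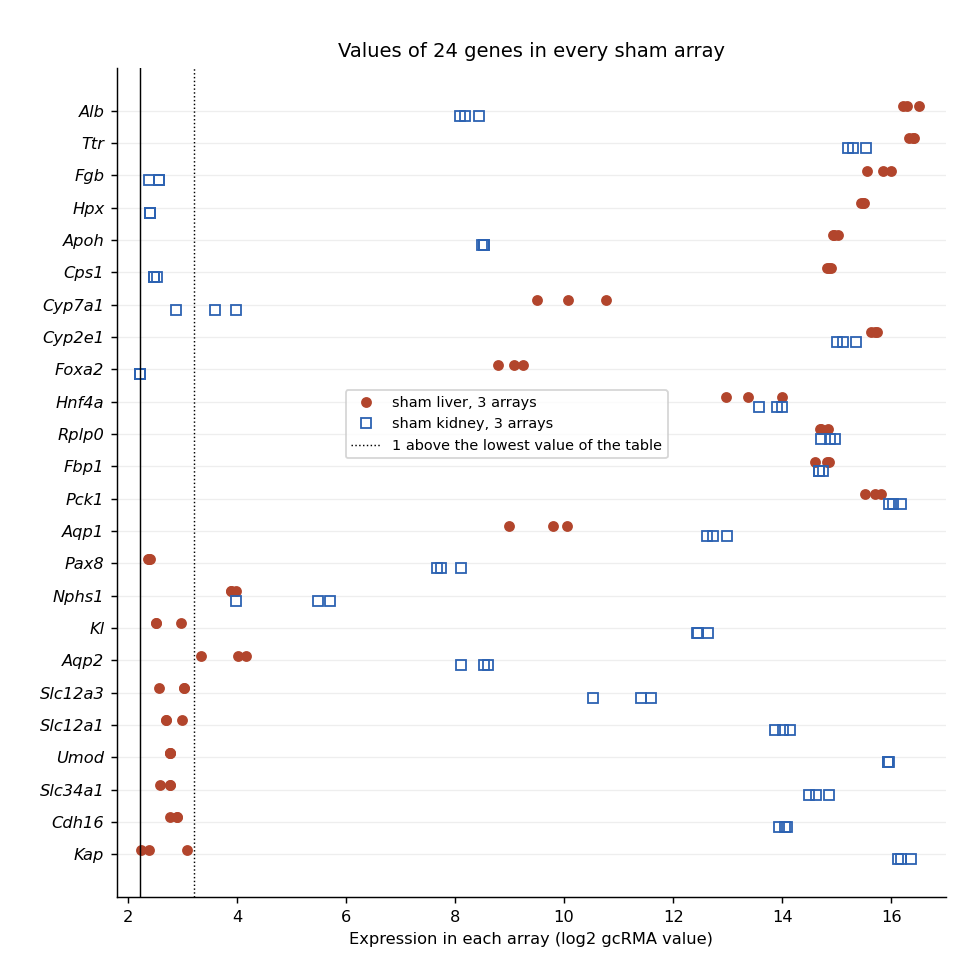
Log2 value of 24 genes in each of the 3 liver sham arrays (red circles) and the 3 kidney sham arrays (open blue squares), with a dotted line 1 unit above the lowest value of the table. Hnf4a, Rplp0 and Fbp1 overlap between the organs, Ttr, Cyp2e1 and Pck1 lie close, 1 kidney array lies at the liver level for Nphs1, and the other genes are separated by more than 2 units.

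Xenobiotic cytochrome P450 genes were higher in liver for 19 of 22 genes, 15 at least 8-fold, with a median difference of 9.39 (9.32 with bounds). That median covers genes that passed the filter, several of them through liver alone, and was 5.17 with no filter and 5.02 to 5.16 without any 1 liver array. Cyp1a2, which oxidises caffeine and aromatic amines, read 13.97, 13.95 and 14.03 in liver, against 2.23, 2.23 and 2.21 in kidney (at least 1747-fold). Cyp2f2 was above the floor in kidney, with 14.47, 14.52 and 14.67 in liver against 4.40, 5.22 and 4.0 in kidney (1032-fold). Cyp2e1, the ethanol-inducible P450, was high in both organs, with 15.64, 15.74 and 15.70 in liver and 15.01, 15.12 and 15.35 in kidney (0.53, SE 0.10, adjusted p = 0.00765, 1.45-fold). Cyp4b1 read 8.19, 8.23 and 7.42 in liver, against 15.62, 15.61 and 15.96 in kidney (220-fold higher in kidney), and Cyp2j5, an epoxygenase of arachidonic acid, differed by -1.09. Probe sets of closely related P450 genes can take up each other's RNA, which was not tested.

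Conjugating enzymes were split between the organs within families. Of 30 genes, 16 were higher in liver, 11 in kidney and 3 were not called. The glucuronosyltransferases Ugt2b36 and Ugt2b1 were at least 3639-fold and at least 2896-fold higher in liver. Ugt8a, which in brain makes the galactolipids of myelin, read 2.60, 2.26 and 2.25 in liver and 12.49, 12.55 and 12.87 in kidney (at least 687-fold higher in kidney). The sulfotransferase Sult2a8 was at least 2554-fold higher in liver, while Sult1d1 was high in both organs and 2.23-fold higher in kidney. Among 14 genes known as male-biased or androgen-regulated in mice, 7 were higher in liver and 6 in kidney. Hsd3b5 and Elovl3 were at least 877-fold and at least 358-fold higher in liver, and Kap, the androgen-regulated protein of the proximal tubule, read 2.24, 3.09 and 2.39 in liver against 16.12, 16.18 and 16.36 in kidney (-13.65, SE 0.25, at least 8226-fold).

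Of 23 transcription factors known from hepatocytes, 19 were higher in liver, 15 at least 8-fold, and 0 were higher in kidney. Foxa2, a pioneer factor of endoderm, read 8.80, 9.09 and 9.24 in liver and 2.21 in each kidney array (at least 56.8-fold). Hhex, a homeobox factor of the liver bud, was at least 193-fold higher and Nr5a2, a nuclear receptor of bile acid genes, at least 53.2-fold. The 4 not called were Hnf4a, Nr1h4 (the bile acid receptor), Xbp1 and Zfp36l1. Hnf4a, whose name comes from hepatocytes, read 12.97, 13.38 and 14.00 in liver and 13.58, 14.00 and 13.90 in kidney, and the organs overlapped (-0.38, SE 0.29, adjusted p = 0.335).

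Of 33 transcription factors known from kidney, 29 were higher in kidney, 19 of them at least 8-fold, and 0 were higher in liver (1 after quantile normalization). Pax8, needed to form the nephron, read 2.37, 2.39 and 2.41 in liver and 8.11, 7.67 and 7.75 in kidney (-5.45, SE 0.13, at least 24.7-fold). Hoxa9, a gene of the posterior body axis, read 2.21 in all liver arrays and 11.49, 11.32 and 11.40 in kidney (at least 292-fold). Irx3 and Mecom, both known from nephron development, were at least 80.8-fold and at least 54.7-fold higher in kidney. Osr1, Hoxb9, Hoxc9 and Grhl2 were not called.

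Proximal tubule transporters and receptors had the lowest median difference of the 30 lists. Of 42 genes, 37 were higher in kidney, 35 at least 8-fold, with a median difference of -7.46 (-7.21 with bounds). Slc34a1, the sodium-phosphate carrier, read 2.59, 2.76 and 2.76 in liver, against 14.49, 14.61 and 14.85 in kidney (-11.95, SE 0.12, at least 2775-fold). Lrp2, megalin, which takes up filtered protein, read 2.21, 2.21 and 2.44 in liver, against 13.70, 13.94 and 13.54 in kidney (at least 1460-fold), and Amn, a partner of its co-receptor cubilin, was at least 359-fold higher. Slc13a1, the sodium-sulfate carrier, was at least 1227-fold higher in kidney, and the organic ion carriers Slc22a6 and Slc22a2 at least 687-fold and at least 488-fold.

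The transporters that did not follow this pattern were few. Slc26a1, a sulfate exchanger, and Slc20a2, a phosphate carrier, were 2.77-fold and 2.3-fold higher in liver. Slc22a7, an organic anion carrier, read 9.17, 9.35 and 10.75 in liver and 11.01, 10.16 and 11.95 in kidney and was not called (-1.28, SE 0.64, adjusted p = 0.161), but was with the letter block (adjusted p = 0.0324) and with array weights (adjusted p = 0.0487). Slc26a6 and Slc16a1 were the other 2 not called.

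Brush border and lysosomal enzymes were higher in kidney for 17 of 21 genes. Cltrn, a partner of the neutral amino acid carriers, read 2.35, 2.21 and 2.35 in liver, against 15.45, 15.60 and 15.50 in kidney (-13.21, SE 0.07, at least 5059-fold). Dpep1, a dipeptidase of the brush border, was at least 298-fold higher in kidney. Pdzk1, a scaffold for brush border transporters that is also found in hepatocytes, read 10.41, 10.45 and 10.27 in liver and 14.67, 14.69 and 14.74 in kidney (-4.32, SE 0.06, adjusted p = 7.43e-07). Ctsl, a lysosomal protease, was 1.35-fold higher in liver, and this call was lost when all of its probe sets were averaged (adjusted p = 0.12).

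Other genes with the largest measured differences towards kidney were not transporters. Klk1, tissue kallikrein, read 3.81, 5.47 and 3.81 in liver, against 15.91, 15.94 and 15.71 in kidney (-11.49, SE 0.50, 2880-fold). Gpx3, the plasma glutathione peroxidase, which the kidney supplies, read 7.11, 5.90 and 6.97 in liver, against 15.72, 15.73 and 15.90 in kidney (559-fold). Miox, which opens the ring of inositol, was at least 2762-fold higher in kidney, and Dnase1, a secreted nuclease of urine, at least 2704-fold.

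In the loop of Henle and distal convoluted tubule, 22 of 25 genes were higher in kidney and 16 at least 8-fold. Umod, uromodulin, the main protein of normal urine, read 2.77 in each liver array, against 15.97, 15.93 and 15.93 in kidney (-13.18, SE 0.04, at least 6801-fold). Slc12a1, the target of loop diuretics, read 2.71, 2.71 and 3.00 in liver, against 14.01, 14.14 and 13.86 in kidney (at least 1771-fold). Slc12a3, the target of thiazides, read 2.57, 3.03 and 3.03 in liver, against 11.41, 11.59 and 10.53 in kidney (at least 249-fold), with kidney array C the lowest of the kidney arrays. Array C was the lowest in kidney for 15 of the 25 genes of this list and for 7 of 9 collecting duct markers. It was the highest in kidney for 27 of the 42 proximal tubule transporters and receptors. The part of tubule segments in the kidney pieces was not tested. Egf, whose precursor is made in the distal nephron, was at least 907-fold higher in kidney. Tsc22d3, a glucocorticoid target, was the gene higher in liver (0.95, adjusted p = 0.0225), a call that was lost without kidney array A (adjusted p = 0.0779) or without kidney array B (adjusted p = 0.0784), in the fit of all 18 arrays (adjusted p = 0.0524) and with the letter block (adjusted p = 0.0624).

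Principal cells of the collecting duct and acid-base genes of intercalated cells were higher in kidney for 12 of 17 and 16 of 21 genes. Aqp2, the water channel that vasopressin moves, read 4.17, 4.02 and 3.35 in liver, against 8.61, 8.53 and 8.12 in kidney (-4.57, SE 0.27, at least 23.8-fold). Hsd11b2, which keeps glucocorticoids from the aldosterone receptor, was at least 179-fold higher in kidney, and Kcnk1, a potassium channel, at least 54.7-fold. Car12 and Car2, carbonic anhydrases, were at least 379-fold and 302-fold higher in kidney, and Slc26a4, the chloride-bicarbonate exchanger pendrin, at least 32.5-fold. St6gal1, a sialyltransferase, went the other way, with 10.09, 10.08 and 9.79 in liver against 5.13, 4.68 and 5.23 in kidney (31.4-fold). Rhbg was 1.38-fold higher in liver (adjusted p = 0.0299). That call was lost without kidney array B or C or liver array A or B (adjusted p of 0.0579 to 0.0913).

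Of 22 podocyte and glomerular genes, 15 were higher in kidney, 7 at least 8-fold, with a median of -1.62 (-1.34 with bounds). The 2 higher in liver were Ehd3, a membrane trafficking protein (1.74-fold), and the phospholipase Plce1 (2.18-fold). Npnt, a matrix protein that binds integrin, and the basement membrane collagens Col4a3 and Col4a4 were at least 349-fold, 173-fold and 176-fold higher in kidney. Nphs1, nephrin of the slit diaphragm, read 3.89, 3.89 and 3.98 in liver and 5.71, 5.49 and 3.98 in kidney, and was not called (-1.14, SE 0.49, adjusted p = 0.113). Kidney array C alone lay at the liver level, and without it the difference was -1.68 (adjusted p = 0.000558). Nphs1 was also called with array weights (adjusted p = 0.0185) and in the fit of all 18 arrays (adjusted p = 0.0285).

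Of 21 hormone, vitamin D and calcium genes, 9 were higher in kidney and 7 in liver. Kl, the co-receptor of FGF23, read 2.98, 2.52 and 2.52 in liver, against 12.44, 12.46 and 12.64 in kidney (at least 632-fold). Pth1r, the parathyroid hormone receptor, read 5.06, 6.31 and 5.66 in liver, against 13.14, 13.05 and 13.42 in kidney (184-fold higher in kidney), and Vdr, the vitamin D receptor, was at least 123-fold higher in kidney. Agt, the precursor of angiotensin, read 13.14, 13.48 and 13.22 in liver, against 9.68, 8.90 and 9.16 in kidney (16.4-fold higher in liver). Dio1, which activates thyroxine, was 33.7-fold higher in liver.

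**Figure D3:**
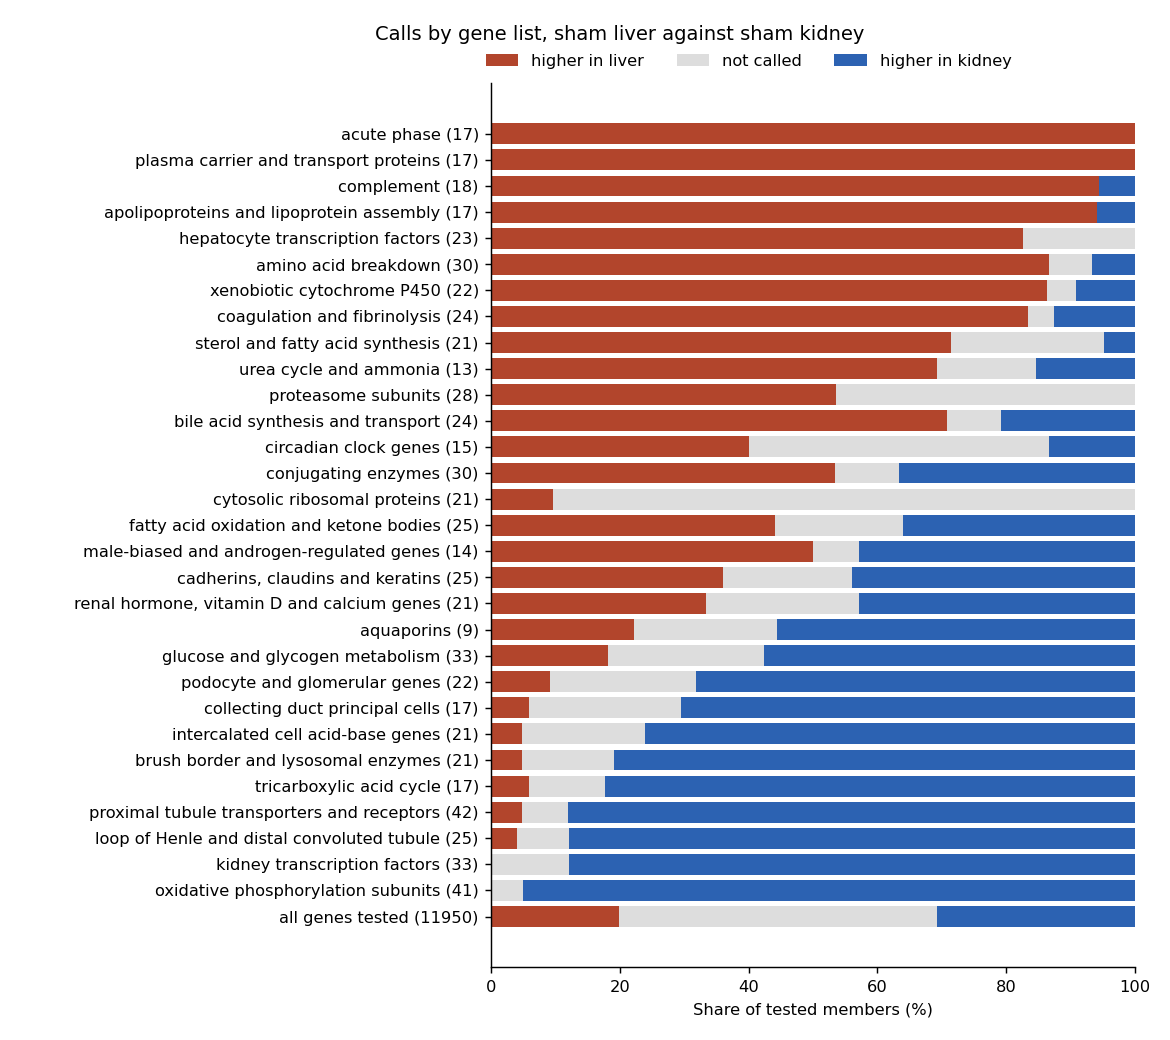
Share of the tested genes of each of 30 gene lists that were called higher in liver (left), not called, or called higher in kidney (right), with all 11950 tested genes for comparison. Plasma protein lists are filled by calls towards liver and tubule lists by calls towards kidney, while ribosomal genes are mostly not called.

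Of 30 related pairs, 22 had both genes tested, and in 13 of these one gene was called towards liver and the other towards kidney. In 2 pairs, Pck1 with Pck2 and Cox7a2 with Cox7a1, both were higher in kidney, and in 7 at least 1 gene was not called. Over all tested genes, 19.9% were called higher in liver and 30.7% higher in kidney. Many pairs set a gene known from liver beside one known from other tissues, and they were chosen with earlier results known. The count of opposite pairs thus describes the pairs chosen and says nothing of gene families at large. Fabp1, a fatty acid binding protein, read 16.89, 16.69 and 16.87 in liver, against 6.30, 4.44 and 6.29 in kidney (11.14, SE 0.56, adjusted p = 7.17e-05, 2256-fold). Fabp3, its relative of heart and muscle, read 5.04, 4.68 and 4.20 in liver, against 10.57, 10.52 and 10.08 in kidney (-5.75, SE 0.26, 53.8-fold higher in kidney). Aqp9, a channel for glycerol and water, was at least 800-fold higher in liver, and Aqp3 and Aqp7 were 64.9-fold and at least 35-fold higher in kidney. The cadherin Cdh2 was 25.4-fold higher in liver, while Cdh16, kidney-specific cadherin, was at least 1795-fold higher in kidney. The organic anion carriers Slco1b2 and Slco4c1 parted in the same way, at least 3280-fold higher in liver and at least 90.3-fold higher in kidney.

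Acsm2 and Acsm1 activate medium-chain fatty acids. Acsm2 read 3.55, 5.24 and 2.64 in liver, against 15.22, 15.22 and 15.40 in kidney (at least 2843-fold), while Acsm1 was 3.05-fold higher in liver. Krt18 and Krt8, the keratin pair of simple epithelia, were 65-fold and 2.43-fold higher in liver, and Krt7 at least 43.5-fold higher in kidney. The Krt8 call was lost without kidney array B or C or liver array B (adjusted p of 0.0622 to 0.072). The gap junction gene Gjb1 read 13.86, 13.88 and 13.72 in liver and 8.72, 8.79 and 8.80 in kidney (33.1-fold), while Gja1 overlapped between the organs (-0.05, SE 0.28, adjusted p = 0.919).

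Glucose metabolism leaned towards kidney, with 19 of 33 genes higher in kidney, 6 higher in liver and a median difference of -1.13. The median was -0.73 after quantile normalization and also with the mean of all probe sets of a gene, and the counts after median centring were 18 and 9. Fbp1, Pck1 and G6pc, enzymes of glucose output, each differed by less than 2 units. Fbp1, which takes phosphate from fructose bisphosphate, read 14.86, 14.82 and 14.61 in liver and 14.67, 14.75 and 14.68 in kidney (0.07, SE 0.08, adjusted p = 0.512), but was called without liver array C (0.14, adjusted p = 0.0442) and after median centring (0.30, adjusted p = 0.0462). Pck1, the cytosolic carboxykinase, read 15.51, 15.70 and 15.81 in liver and 16.18, 15.95 and 16.02 in kidney (-0.38, SE 0.10, adjusted p = 0.0295). G6pc, which releases free glucose, differed by -1.63 (SE 0.35, adjusted p = 0.014). The Pck1 call was lost after median centring (-0.15, adjusted p = 0.151), in the fit of all 18 arrays (adjusted p = 0.442), with the array letter as a block (adjusted p = 0.091), with no filter (adjusted p = 0.0597) and without kidney array A or C or liver array A or B (adjusted p of 0.06 to 0.0853). The call of the mitochondrial form Pck2 (-1.15, adjusted p = 0.0289) was lost with the letter block (adjusted p = 0.0883), with no filter (adjusted p = 0.0542) and without any 1 of the kidney arrays or without liver array B (adjusted p of 0.0508 to 0.0939).

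Enzymes of glycogen and of glucose use differed more. Gys2, liver glycogen synthase, read 11.90, 12.39 and 12.56 in liver, against 6.60, 6.47 and 6.60 in kidney (53-fold), and Pygl, liver glycogen phosphorylase, was 28.5-fold higher in liver. Gys1, the muscle form of the synthase, was not called (-1.32, adjusted p = 0.0547), but was called higher in kidney under 6 alternatives, which were the fit of all 18 arrays, array weights, either stricter filter, the mean of all probe sets and leaving out liver array A (adjusted p of 0.00333 to 0.0415). Gckr, which holds glucokinase in the nucleus, was at least 134-fold higher in liver. Hk1, the hexokinase of most tissues, read 4.38, 6.46 and 6.21 in liver and 10.15, 10.32 and 10.14 in kidney (22.9-fold higher in kidney), Pkm was 32.3-fold and Ldhb 256-fold higher in kidney. Slc2a2, the glucose carrier of hepatocytes and proximal tubule, differed by 0.63 (1.54-fold higher in liver).

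Genes of fatty acid oxidation were called in both directions. Oxct1, which lets tissues burn ketone bodies, read 6.98, 6.84 and 7.53 in liver, against 15.89, 15.88 and 15.83 in kidney (-8.75, SE 0.19, adjusted p = 3.87e-06, 430-fold higher in kidney). Bdh1, the step before it, was 2.38-fold higher in liver. In the whole list of 25 genes, 11 were higher in liver, 9 in kidney and 5 not called, and only Fabp1 among those higher in liver was 8-fold apart. Cyp4a14, a fatty acid hydroxylase, read 12.10, 11.13 and 7.47 in liver and 9.0, 7.29 and 8.33 in kidney and was not called (2.02, adjusted p = 0.268). Without liver array C, which lay among the kidney arrays, it differed by 3.40 (adjusted p = 0.0168), and with array weights by 3.02 (adjusted p = 0.0174).

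Sterol and fatty acid synthesis lay towards liver for 15 of 21 genes, 8 at least 8-fold, with a median of 2.62 (1.74 with the mean of all probe sets). Dhcr7, the last enzyme of cholesterol synthesis, read 12.63, 12.38 and 11.99 in liver, against 8.29, 8.05 and 7.46 in kidney (4.40, SE 0.28, 21.1-fold). Elovl5 and Sc5d, an elongase and a sterol desaturase, were 8.95-fold and 13.8-fold higher in liver. Hmgcs1, which makes the precursor of mevalonate, did not pass the test (-0.52, SE 0.30, adjusted p = 0.216), but did with the mean of its probe sets (-0.99, adjusted p = 0.0277). Me1, the cytosolic malic enzyme, was the gene higher in kidney (-1.19, adjusted p = 0.0169), a call lost without any 1 of the kidney arrays or without liver array B (adjusted p of 0.0517 to 0.0594).

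Mitochondrial genes were mostly called higher in kidney, most of them by small amounts. Of 41 subunits of oxidative phosphorylation 39 were called higher in kidney and 0 in liver, with a median difference of -0.53. The count for kidney was 23 after median centring and 41 after quantile normalization, with 0 higher in liver under either. Ndufs1, a core subunit of complex I, read 11.54, 11.46 and 11.42 in liver and 12.65, 12.63 and 12.64 in kidney (2.24-fold higher in kidney). Cox7a1, the heart and muscle form of a complex IV subunit, was the gene more than 8-fold apart, at 6.46, 5.15 and 2.65 in liver against 9.45, 9.21 and 9.14 in kidney (at least 22.8-fold). That call (adjusted p = 0.016) was lost without any 1 of the kidney arrays (adjusted p of 0.0512 to 0.0577). In the tricarboxylic acid cycle 14 of 17 genes were higher in kidney and 1 in liver (median -0.79, or -0.52 with the mean of all probe sets), and 11 and 1 after median centring. Idh3g, a subunit of isocitrate dehydrogenase, and Cs, citrate synthase, were 4.1-fold and 3.35-fold higher in kidney, and Fh1, fumarase, was 1.66-fold higher in liver.

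Most cytosolic ribosomal protein genes were not called. Of 21, 19 were not called and 2 were higher in liver (median 0.06). The direction of this list depended on scaling, since 11 were higher in liver after median centring, and 1 in liver and 3 in kidney after quantile normalization. Rplp0, often used to normalize PCR, read 14.84, 14.72 and 14.70 in liver and 14.97, 14.88 and 14.70 in kidney (adjusted p = 0.383), but was called higher in kidney after quantile normalization (-0.25, adjusted p = 0.0441). Rps9 was called higher in liver (0.33, adjusted p = 0.0424) and lost this call under 9 alternatives (adjusted p of 0.0541 to 0.124), quantile normalization and leaving out kidney array A or any 1 liver array among them.

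Proteasome subunits were higher in liver for 15 of 28 genes, with 13 not called and a median of 0.31. The count was 22 after median centring, and 15 with 1 higher in kidney after quantile normalization. The largest differences were those of the 3 subunits of the immunoproteasome, which interferon induces. Psmb9 read 9.18, 8.32 and 8.23 in liver, against 4.75, 4.91 and 5.50 in kidney (3.52, SE 0.34, 11.5-fold), Psmb8 was at least 5.91-fold and Psmb10 4.55-fold higher in liver. Of 15 clock genes 6 were higher in liver, 2 in kidney and 7 not called (9 higher in liver under either scaling), with Cry2 3.95-fold and Dbp 2.14-fold higher in liver and Hlf 2.91-fold and Clock 1.88-fold higher in kidney.

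Markers of the cells between the hepatocytes and tubules also differed, and the genes of this paragraph were chosen after their values were seen. Of 10 tested markers of liver sinusoidal endothelium, 9 were higher in liver and 1 in kidney (Fcgr2b, -0.91). Clec4g, a lectin of those cells, read 9.78, 9.59 and 9.35 in liver, against 2.31, 2.83 and 2.57 in kidney (at least 82.2-fold). Of 14 Kupffer cell and macrophage markers 9 were higher in liver and 1 in kidney (Cd14, -0.60), a call of Cd14 that was lost after median centring (adjusted p = 0.0619) and quantile normalization (adjusted p = 0.0663). Among them Vsig4, a complement receptor of Kupffer cells, read 9.91, 10.64 and 10.26 in liver, against 3.11, 3.11 and 3.36 in kidney (at least 133-fold). Markers of endothelium in general lay the other way, with 8 of 12 higher in kidney (7 after median centring and 6 after quantile normalization). The median difference of these 12 markers was -1.45, and only 1 of them was at least 8-fold higher in kidney. That gene was Emcn, endomucin of capillaries and veins. It read 3.73, 2.62 and 2.77 in liver, against 10.16, 10.13 and 9.96 in kidney (at least 117-fold). Of the markers of neutrophils, lymphocytes and adrenal gland, 0 of 2, 0 of 3 and 0 of 5 tested were called in limma, against 1, 1 and 2 higher in liver after median centring and 1, 1 and 0 after quantile normalization. Cd3e, Cyp11a1 and Star, called after centring, were at the floor in both organs, where centring adds 0.23 to a difference between background readings.

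The replicates of an organ were close for most genes, and more so in kidney. The median SD over the 11950 genes was 0.19 among the liver arrays and 0.13 among the kidney arrays. The SD was above 1 in 227 genes in liver and 86 in kidney. Where the 3 arrays of liver spanned 2 units or more (190 genes), the array farthest from the middle one was A in 86, C in 83 and B in 21 genes. In kidney it was C in 43 of 69 such genes, A in 16 and B in 10.

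**Figure D4:**
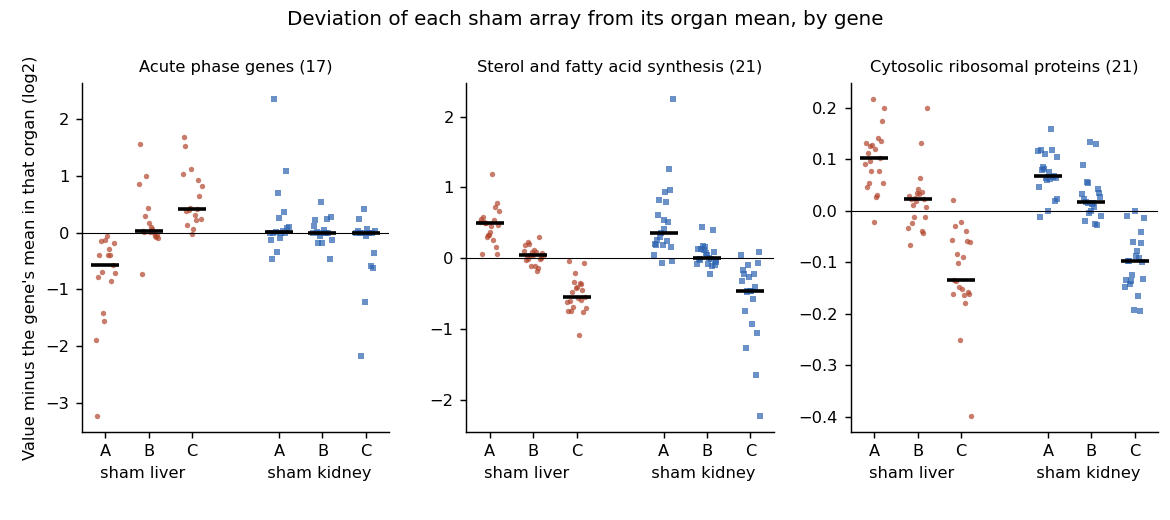
Deviation of each sham array from the mean of its organ, gene by gene, for 17 acute phase genes, 21 genes of sterol and fatty acid synthesis and 21 ribosomal protein genes, with bars at the medians and vertical axes that differ between panels. Liver array A lies low for the acute phase genes, array A lies high and array C low for sterol and fatty acid synthesis in both organs, and the ribosomal genes deviate little.

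The genes of sterol and fatty acid synthesis varied by array letter in both organs. Their mean was 12.49 in liver array A, 12.07 in B and 11.51 in C, and 10.24, 9.77 and 9.15 in kidney arrays A, B and C. Array A was the highest in liver for 20 of 21 genes and in kidney for 18, and array C the lowest in liver for 21 and in kidney for 18. Thrsp, a regulator of fat synthesis chosen after its values were seen, read 14.43, 13.80 and 13.06 in liver and 10.25, 7.98 and 5.77 in kidney. Array C was also the lowest for 18 of 21 ribosomal genes in liver and 19 in kidney. In liver it was the lowest too for 36 of 41 genes of oxidative phosphorylation, 20 of 28 of the proteasome, 21 of 30 of amino acid breakdown and 20 of 30 conjugating enzymes. The control sets for the 3′ and 5′ ends of actin, a sign of RNA quality, differed by 1.56, 1.48 and 1.86 in liver arrays A, B and C and by 1.82, 1.72 and 2.02 in the kidney arrays, so that C was the highest in each organ. For the control sets of GAPDH the same difference was 0.28, 0.27 and 0.33 in liver arrays A, B and C. It was 0.23, 0.17 and 0.21 in the kidney arrays, where A was the highest. The part of RNA quality in these results was not tested.

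Some markers of other cell types followed single arrays or an array letter, and these genes too were chosen after their values were seen. Acta2, smooth muscle actin, read 10.53, 7.17 and 7.44 in liver, against 10.86, 10.21 and 9.43 in kidney (adjusted p = 0.214). Krt19, a keratin of bile ducts, read 6.94 in liver array A and 3.84 in every other sham array. Liver array A thus held the highest liver reading of both. The markers of stellate cells and fibroblasts and of bile ducts had their highest mean in liver array A as well, at 7.47 (6.89 in B and 6.78 in C) over the tested stellate and fibroblast genes, and 4.47 (3.40 and 3.60) over the 6 bile duct markers. For the stellate and fibroblast genes array A was the highest in kidney too, at 6.44 (5.86 in B and 5.79 in C). It was the highest for 9 of 15 of these genes in liver and 12 in kidney. The bile duct means in kidney arrays A, B and C were 6.51, 6.52 and 6.46. Of 15 tested stellate, mesangial and fibroblast markers, 6 were higher in liver and 2 in kidney, and their summed linear level was 6948 to 9058 in liver (Des and Hgf at the floor) and 2742 to 6006 in kidney (Lrat, Des and Hgf at the floor). Of the 6 bile duct markers 4 were higher in kidney, and the sums were 129.8 to 290.7 in liver (Krt7, Sox9 and Cftr at the floor) and 1246 to 1492 in kidney (Sox9 at the floor). Adipoq, a hormone of fat cells, read 2.22 in all liver arrays and 8.01, 7.07 and 3.75 in kidney, and Ucp1, of brown fat, read 7.66 in kidney array A and 2.25 in the other sham arrays. Over the 4 fat cell markers the summed linear level was 19.7 in every liver array, with all 4 at the floor, against 28.5 to 480 in the kidney arrays, with Lep at the floor. The part of bile duct, stromal or fat tissue in these results was not tested.

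The arrays of GalN mice, which were outside the sham fit but entered the mean that chose each gene's probe set, showed how far the organ differences held in injured animals. Of the 576 genes at least 8-fold higher in sham liver, 566 were tested at 24 h and 522 were again called higher in liver (25.0% of all genes tested at 24 h were). At 48 h, 557 of 573 were called higher in liver (21.1% of all genes). Of the 803 genes at least 8-fold higher in sham kidney, 790 of 802 were called higher in kidney at 24 h (29.3% of all genes) and 789 of 802 at 48 h (25.0%). The difference was still at least 8-fold for 407 of the 576 liver genes at 24 h and 470 at 48 h (4.58% and 4.55% of all genes), and for 680 and 652 of the 803 kidney genes (7.29% and 6.28%). Liver array C at 48 h stood apart in the 3′ minus 5′ control sets, at 2.56 for actin and 0.81 for GAPDH. The other liver arrays of the series read 1.48 to 1.95 and 0.21 to 0.35. Without it, 3027 genes were called higher in liver and 3284 in kidney at 48 h, against 2527 and 2996 with it. Its part in the other 48 h values was not tested.

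The size of the difference changed more for liver genes. The median difference of the 576 genes was 5.65 in sham, 4.42 at 24 h and 5.15 at 48 h. That of the 803 kidney genes was -4.72, -4.76 and -4.61. Both sets were chosen by their sham difference, so a smaller median in other arrays may be built in. Across all states, the 9 liver arrays lay above all 9 kidney arrays for 529 of the 576 genes (10.6% of tested genes), and the 9 kidney arrays above all 9 liver arrays for 783 of the 803 (18.3%), the sham arrays that chose the genes being among them. The calls that turned round were 1 liver gene at 24 h, Nrep (4.82 in sham and -0.63 at 24 h, adjusted p = 0.04), and 1 kidney gene at 48 h, Bhlhb9 (-3.16 in sham and 1.44 at 48 h, adjusted p = 0.000819).

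**Figure D5:**
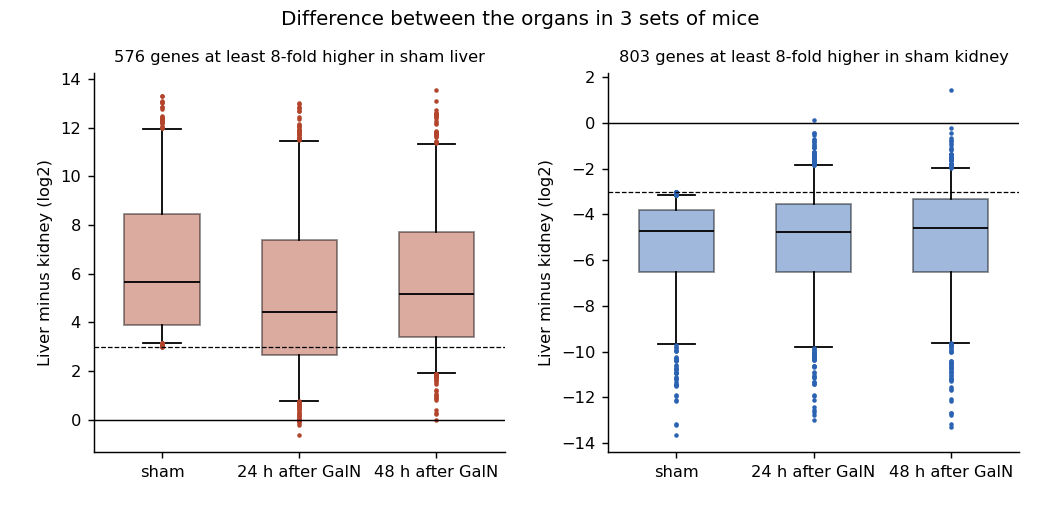
Difference between liver and kidney (log2) in sham mice and in GalN mice at 24 h and 48 h for the 576 genes at least 8-fold higher in sham liver and the 803 at least 8-fold higher in sham kidney, as boxes at the quartiles with whiskers from the 5th to the 95th percentile. The median of the liver genes was 5.65, 4.42 and 5.15, and that of the kidney genes stayed between -4.76 and -4.61.

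Probe sets of a gene rarely gave opposite answers. Among 2008 genes with at least 2 called probe sets, 54 (2.69%) had sets called in opposite directions. Among 482 such genes that were at least 8-fold apart there were 4, Ahnak, Cotl1, Dmtn and Syt11, named here after their values were seen. The size of a difference depended more on the probe set, since averaging all sets of a gene shrank the difference of Klk1 to -6.20 and that of Hoxa9 to -5.18, both still called higher in kidney.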

How the data were processed

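RNA of liver and kidney was measured on Affymetrix Mouse 430 2.0 arrays, with 3 sham arrays for each organ. The authors deposited log2 gcRMA values for 45101 probe sets (R packages affy and gcRMA per the series' design text, GCRMA with no version per the submitters' processing notes); scanner files were not used here, so scale and centring rest on these values. Of the probe sets, 34945 are named for 1 gene, 932 for several and 9160 for none, and 64 are controls. The set with the highest mean over 18 arrays stood for each gene. Genes above their array's median in at least 3 of 6 sham arrays were tested with limma (version 3.58.1, R 4.3.3; lmFit, eBayes with an intensity trend, organ means only), after a check on simulated data. The label field lists Cy3, although this platform has 1 colour, and the protocol can be read as pooling mice. Sequences came from RefSeq promoter windows.

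Named genes come from a rule, and not every gene it picked is described. It took, in each direction, the 12 largest differences among called genes clear of the floor in all 6 arrays. Those genes also had no repeated reading and no overlap between the organs. It also took the 10 largest bounds in each direction among called genes with an organ at the floor. Unnamed clones, predicted genes, Rik and Gm symbols and the Mup family were skipped in both rankings. Up to 3 called genes per direction of each of 30 lists (710 of 781 entries matched), a panel and related pairs were added. Apoa1 (neither clear of the floor nor at it in every kidney array), Abcc2, Amacr, Asl, Ass1, Gamt, G6pc, Selenop, Nrep, Bhlhb9, the genes given as not called in a list and the genes shown with promoter letters fall partly or wholly outside that rule and were chosen after their values were seen. Members and lists were chosen with earlier results of these data known. Alternatives were another scale, filter, probe set rule, fit and leaving out each array. The number of arrays limits the precision. Array letters were not used to pair the organs in the main fit, since the labels do not state such pairing. In sham arrays, deviations from the organ means correlated between the organs at 0.23, 0.03 and 0.26 for letters A, B and C. Between sham arrays of different letters they correlated at -0.24 to 0.06. At 24 h and 48 h, liver and kidney arrays of the same letter correlated at -0.07 to 0.09. Protein comparisons of related pairs were not made here.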

Additional observations from a re-analysis of the deposited data

Results flagged for a closer look

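For 22 genes of a panel, the liver minus kidney difference at 24 h and at 48 h was tested against that in sham mice, as a contrast in a limma fit of all 18 arrays with p-values adjusted over all genes. Cps1, Pax8 and Lcn2 passed at both times. A change of the difference does not say which organ moved. In sham mice Cps1 was at the floor in kidney and Pax8 in liver. The difference in Lcn2 changed by -7.17 at 24 h (SE 1.24, adjusted p = 0.00067) and by -5.11 at 48 h (SE 1.24, adjusted p = 0.0155). Cps1 changed by -0.50 at 24 h (SE 0.13, adjusted p = 0.00915) and -0.54 at 48 h (SE 0.13, adjusted p = 0.0138). Pax8 changed by -0.65 at 24 h (SE 0.23, adjusted p = 0.0432) and -0.90 at 48 h (SE 0.23, adjusted p = 0.0179). Aqp2 passed at 24 h, with -2.16 (SE 0.68, adjusted p = 0.0267), and not at 48 h (-1.17, adjusted p = 0.303). Afp passed at 48 h, with 4.07 (SE 0.73, adjusted p = 0.00309), and not at 24 h (0.62, adjusted p = 0.577). Whether the changes at the 2 times differ from each other was not tested. The fit included liver array C at 48 h, whose control sets stood apart, and was not repeated without that array.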

How the results depend on the processing

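The count of 6047 called genes lay between 5476 and 7826 under every alternative for scale, filter, fit or averaging, and between 5003 (without kidney array B) and 5899 (without liver array C) when 1 array was left out. Taking each probe set by itself, which tests more units, gave 9337 calls, 3579 higher in liver and 5758 higher in kidney, with 1215 at least 8-fold higher in kidney. Calls higher in liver numbered 4120 after median centring and 3826 after quantile normalization, the 2 scalings with a median shift towards liver. With the array letter as replicate block, 5850 genes were called (2292 in liver, 3558 in kidney), and of the named genes 4 lost their call (Tsc22d3, Rps9, Pck1 and Pck2) and 1 gained it (Slc22a7). In deviations from the organ means, each sham liver array correlated best with the kidney array of its own letter, but for B at 0.03 only, which is a hint from the data and not from the design. The hint rests on the sham arrays. At 24 h the values for letters A, B and C were -0.02, 0.02 and -0.07, and each liver array correlated better with a kidney array of another letter. At 48 h they were 0.01, 0.09 and 0.07, against -0.10 to 0.03 for different letters. Of the named genes, Slc10a2 alone reversed, with 0.33 after quantile normalization against -0.03. Without any 1 liver array the median difference of P450 genes fell to between 5.02 and 5.16 and that of urea cycle genes to between 0.45 and 0.54, because a gene above the array median in liver alone no longer passes the filter with 2 liver arrays. With no filter, which adds genes low in both organs, the P450 median was 5.17.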
